A study of Mus musculus with 22 samples.

Results

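The genes described here were transcribed in Ezh2 knockout mouse embryonic stem cells (ESCs). In the sets with Ezh2 that chose them, with or without 2i inhibitors or after Ezh2 was put back, they were close to silent. They were chosen by group means in CPM, the estimated count of a gene scaled to a common library total. Each gene had a mean below 0.5 CPM in the wild-type E14 set titled ESC, in the rescued knockout cells and in wild-type ESCs kept with 2i. Each averaged 3 CPM or more in the knockout in both media. Other wild-type ESCs, described below, were not used, and some of the genes were higher there. Symbols beginning Hox, Pax, Tbx, Zic, Gata, Zscan4 or Gm and those ending Rik were left out. Of 55367 symbols, 66 passed these thresholds, 40 carried a left-out symbol (28 Gm, 8 Hox, 3 Rik and 1 Zic), and 26 remained. All 26 passed the filter on low counts used in the tests, which they could do through the knockout libraries alone. The values that chose the genes are given below as a description, without a test.

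Polycomb repressive complex 2 (PRC2) deposits methyl groups on lysine 27 of histone H3, and EZH2 is the main catalytic subunit of the complex. In ESCs the mark covers the promoters of many developmental regulators, most of them rich in CpG dinucleotides, and keeps transcription of these genes low while the cells remain pluripotent. Loss of EZH2 in mouse ESCs is tolerated, since the cells go on dividing without it, and the related enzyme EZH1 can place part of the mark.

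The 22 RNA-seq libraries came from mouse cells in 10 groups. Knockout cells of a single clone, number 10, of the E14 ESC line were grown with LIF and 2i (KO10_S2iL, n = 2) and with LIF (KO10_SL, n = 3), and the same clone was also sequenced after rescue of Ezh2 with LIF (KO10_SL_rescued, n = 2). Wild-type E14 cells were grown with LIF and 2i (titled TG2A.NG.PB.S2iL and called TG2A_S2iL here, n = 2) or with LIF, as one set titled ESC (called E14_ESC, n = 3) and another titled TG2A.NG.PB.ESC (called TG2A_ESC, n = 2). In the media names S stands for serum, L for LIF (a cytokine that holds ESCs undifferentiated) and 2i for a pair of kinase inhibitors. Primitive endoderm (PrE) stem cells, which model the extraembryonic layer facing the blastocyst cavity, came from 2 E14 lines induced with the EZH2 inhibitor EPZ-6438 (EPZ_iPrE1 and EPZ_iPrE2, n = 2 each) and from a C57 line (C57_PrESC, n = 2), which was set beside C57 ESCs in LIF medium (C57_ESC, n = 2). The genotype of the PrE stem cells and of the C57 and TG2A cells is given as wild-type. The labels do not say how Ezh2 was deleted, what drives the rescue, whether any EPZ-6438 was present at harvest, or whether replicates were separate cultures, so p-values measure only the spread between these libraries. The knockout genotype is spelled Eeh2 in the labels.

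Ezh2 itself had 6 and 0 estimated counts in KO10_S2iL and 2, 1 and 1 in KO10_SL. Its level was 502 and 534 CPM in the rescued libraries, 223 and 217 CPM in TG2A_S2iL and 179, 187 and 188 CPM in E14_ESC. The knockout libraries were thus near 0, and both rescued libraries lay above every wild-type library of the set. Each library summed to between 13.6 and 26.3 M estimated counts, so that 1 count was worth 0.0381 to 0.0736 CPM. The low values below therefore rest on few reads and carry a large counting error.

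By known function the 26 genes fell into 4 groups, formed after their values had been seen. Of these, 10 belong to, or lie among, multicopy gene families transcribed in the 2-cell and cleavage-stage mouse embryo, and 2 carry only clone names. A further 4 are developmental transcription factors. The last 10 encode a guidance receptor, epithelial proteins, enzymes and transporters.

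The RefSeq promoters of these groups differ in their letters, and 4 sequences upstream of the annotated start are shown for that reason, with every CpG dinucleotide in capitals. Barx1 and Ccser1 had the most CpGs among the 15 members with a RefSeq promoter, which do not include Pitx1 and Hand1, and Zfp352 and Tdpoz4 stand for the embryonic families. All are on the plus strand of GRCm38.p6, 5′ to 3′, ending just before the first annotated exon base.
Barx1 (chr13:48662786-48662997): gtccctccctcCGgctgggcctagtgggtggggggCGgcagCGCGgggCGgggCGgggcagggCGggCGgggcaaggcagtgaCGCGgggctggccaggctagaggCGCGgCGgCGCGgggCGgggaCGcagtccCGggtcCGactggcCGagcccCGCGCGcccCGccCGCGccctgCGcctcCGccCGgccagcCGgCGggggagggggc
Ccser1 (chr6:61180075-61180323): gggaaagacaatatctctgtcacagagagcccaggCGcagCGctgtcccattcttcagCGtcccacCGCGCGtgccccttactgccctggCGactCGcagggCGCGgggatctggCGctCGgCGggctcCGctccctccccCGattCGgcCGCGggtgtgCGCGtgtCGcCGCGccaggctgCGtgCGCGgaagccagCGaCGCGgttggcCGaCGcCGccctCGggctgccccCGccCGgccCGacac
Zfp352 (chr4:90218570-90218819): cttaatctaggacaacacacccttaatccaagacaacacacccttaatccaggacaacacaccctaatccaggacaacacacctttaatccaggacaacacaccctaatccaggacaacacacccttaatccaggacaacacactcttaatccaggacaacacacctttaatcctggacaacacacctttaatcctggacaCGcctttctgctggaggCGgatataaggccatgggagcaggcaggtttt
Tdpoz4 (chr3:93796148-93796397): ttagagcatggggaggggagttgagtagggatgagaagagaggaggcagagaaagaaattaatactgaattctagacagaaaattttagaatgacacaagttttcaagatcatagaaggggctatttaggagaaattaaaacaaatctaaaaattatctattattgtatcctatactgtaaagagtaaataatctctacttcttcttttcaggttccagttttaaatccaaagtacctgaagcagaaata

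The stretch shown for Barx1 holds 31 CpGs, that for Ccser1 36, that for Zfp352 2 and that for Tdpoz4 0. RefSeq held 17 promoter windows of 300 bases (250 before to 50 after the start) for 15 of the 26 genes, and the 32851 windows of this length over 27025 genes served as background. The 17 windows had a median of 5 CpGs, with quartiles of 2 and 16, against a median of 7 with quartiles of 3 and 20 in the background. Barx1 had 50 CpGs in its window, a number that 0.855% of all windows reached, and Ccser1 had 46, reached by 1.65%. Slc34a2 followed with 30, Hs3st1 with 24, Ptgs2 with 16, Tmprss2 with 13 and Lmx1a with 12. The embryonic families lay at the other end, with 4 CpGs for BB287469, 2 for Zfp352 and for BC147527, and 0 for Tdpoz4. Rdh1 and Apol7b had 2, Abcb5 had 4, and the 3 windows of Dmkn held 5, 5 and 8. Hence the set spans nearly the whole range of promoter CpG content and is not uniformly CpG-rich.

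**Figure D1:**
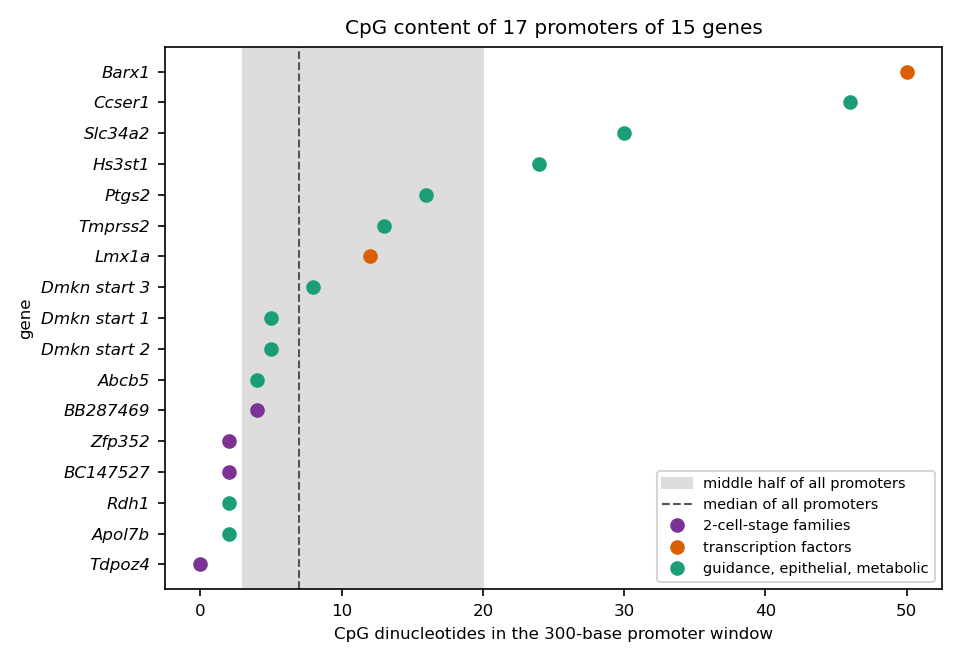
CpG dinucleotides in the 300-base RefSeq promoter window (x axis) of the 15 genes with a window (y axis), coloured by functional group, with the grey band from 3 to 20 and the dashed line at 7 marking the quartiles and the median of all 32851 windows. Barx1 (50) and Ccser1 (46) lie far right of the band, and the 4 embryonic-family genes lie between 0 and 4.

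Upstream of Zfp352 the sequence is built of repeats. The stretch GACAACACAC, its most frequent run of 10 letters, was chosen after the sequence was read. Searched on both strands with overlapping matches counted, it occurs 9 times in the window. These letters are in 17 of 32851 windows (0.0518%), and 1 of those windows holds 3 or more copies. No factor was looked for, and the match describes the letters only.

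The gene families of the 2-cell embryo gave the highest summed level of the 4 groups in the knockout, a sum that also follows the number of genes. Per gene they were not highest. The median of their means was 7.97 CPM in KO10_S2iL and 4.84 CPM in KO10_SL, beside 9.54 and 4.85 CPM for the transcription factors. Summed over the 10 genes, the level was 93.5 and 80.8 CPM in KO10_S2iL and 56.0, 60.1 and 62.0 CPM in KO10_SL. It was 1.88 and 2.25 CPM in the rescued cells, 1.21 and 2.10 CPM in TG2A_S2iL and 3.43, 1.95 and 0.561 CPM in E14_ESC. The 5 knockout libraries lay far above the 7 others, and among the knockout libraries both with 2i lay above the 3 without. In bulk RNA a small share of cells with a high level and a low level in all cells cannot be told apart. ESC cultures are known to hold rare cells that transcribe 2-cell genes.

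Within this group the highest level over the 5 knockout libraries was that of D13Ertd608e, a gene of the Tcstv cluster on chromosome 13 with few annotated features. It had 16.7 and 15.1 CPM in KO10_S2iL and 10.5, 13.4 and 13.5 CPM in KO10_SL, against 0.337 and 0.269 CPM after rescue, 0.181 and 0.237 CPM in TG2A_S2iL and 0.865, 0.0617 and 0.114 CPM in E14_ESC. Per kilobase of exon it was also first among the members that have an annotated length, at 19.6 CPM per kb. This value averages the means of KO10_S2iL and KO10_SL. Tcstv3 followed at 10.3, whereas the long Dcc gene came last at 0.444.

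Tcstv3, the cluster member best known as a marker of 2-cell-like cells, had 9.10 and 7.87 CPM in KO10_S2iL and 5.94, 7.93 and 8.87 CPM in KO10_SL, against 0.393 and 0.322 CPM in the rescued cells, 0.121 and 0.118 CPM in TG2A_S2iL and 0.247, 0 and 0.0761 CPM in E14_ESC. Zfp352, a zinc-finger gene switched on in the 2-cell embryo, had 12.5 and 9.67 CPM in KO10_S2iL and 6.0, 4.98 and 4.56 CPM in KO10_SL, against 0.112 and 0.108 CPM after rescue, 0.0604 and 0.296 CPM in TG2A_S2iL and 0.124, 0.555 and 0 CPM in E14_ESC. Its 2i knockout libraries did not overlap those without 2i, whereas for Tcstv3 they did. BB287469, a copy in the eIF1A-like family of early embryonic genes, had 12.1 and 8.03 CPM in KO10_S2iL and 7.94, 6.76 and 6.53 CPM in KO10_SL, against 0.305 and 0.370 CPM after rescue, 0 and 0.518 CPM in TG2A_S2iL and 0.851, 0.404 and 0.143 CPM in E14_ESC.

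Pramef25 belongs to the PRAME family of leucine-rich-repeat proteins of germ cells and early embryos. It had 8.68 and 10.5 CPM in KO10_S2iL and 4.50, 4.06 and 4.94 CPM in KO10_SL, against 0.169 and 0.269 CPM after rescue, 0.181 and 0.177 CPM in TG2A_S2iL and 0.371, 0.247 and 0.0381 CPM in E14_ESC. The other members of the group were BC147527 and AF067063 of the chromosome 13 cluster, the POZ-domain genes Tdpoz4 and Spopfm1, and BC080695 in the PRAME cluster. Their means were between 5.29 and 7.45 CPM in KO10_S2iL, between 3.63 and 5.77 CPM in KO10_SL, and between 0.0333 and 0.280 CPM in E14_ESC. RefSeq annotates Spopfm1 as a pseudogene.

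Zscan4 genes, telomere-associated regulators that mark the 2-cell-like state, were left out of the set by symbol, and their summed level was read beside it after the values had been seen. Zscan4a to Zscan4f together had 435 and 433 CPM in KO10_S2iL and 329, 376 and 374 CPM in KO10_SL, against 23.2 and 21 CPM after rescue, 16.3 and 15.1 CPM in TG2A_S2iL and 42.4, 20.3 and 3.03 CPM in E14_ESC. In E14_ESC the libraries took the same order for Zscan4 as for the 10 family members.

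These families lie in clusters. AF067063, D13Ertd608e, BC147527 and Tcstv3 lie within chr13:119827961-120318178 (GRCm38, GENCODE M21), a stretch of 490.2 kb with 23 other genes in the table. Of those 23 genes, 10 had a higher mean in the knockout in both media than in each of the other 3 groups, a pattern that 11.8% of all 55367 symbols in the table showed, and 2 passed the same thresholds but were left out by symbol. Tdpoz4 and Spopfm1 lie within chr3:93796398-94267176 (470.8 kb), where 11 of 25 other genes were higher in both knockout means and 0 passed the thresholds. BC080695 and Pramef25 lie within chr4:143551700-143951016 (399.3 kb), where the same held for 4 of 17 and again 0 passed.

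Near-identical copies make these values uncertain. The deposited counts are not all whole, and how reads that fit several genes were counted is not given in the sources used here. Of the 26 genes, 12 had a fractional count in at least 1 library, 7 of them in every knockout library, and 14 in none. All 4 transcription factors and Zfp352, Spopfm1, Dcc, Hs3st1, Tmprss2, Ccser1, Dmkn, Slc34a2, Ptgs2 and Abcb5 were always whole. BC080695 overlaps Gm13057 in exons on the same strand, and Rdh1 overlaps Rdh16f1, so the counts of these pairs may be split.

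AC140365.1 and AC133095.2 carry clone names and no annotated role, and lie within 196.8 kb of one unplaced scaffold. AC140365.1 had 11.01 and 9.97 CPM in KO10_S2iL and 4.84, 5.25 and 5.68 CPM in KO10_SL, against 0.282 and 0.260 CPM after rescue, 0.303 and 0 CPM in TG2A_S2iL and 0.755, 0.286 and 0.0400 CPM in E14_ESC. AC133095.2 had 0 counts in both rescued libraries. Both genes also had 0 counts in all C57_PrESC and C57_ESC libraries.

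**Figure D2:**
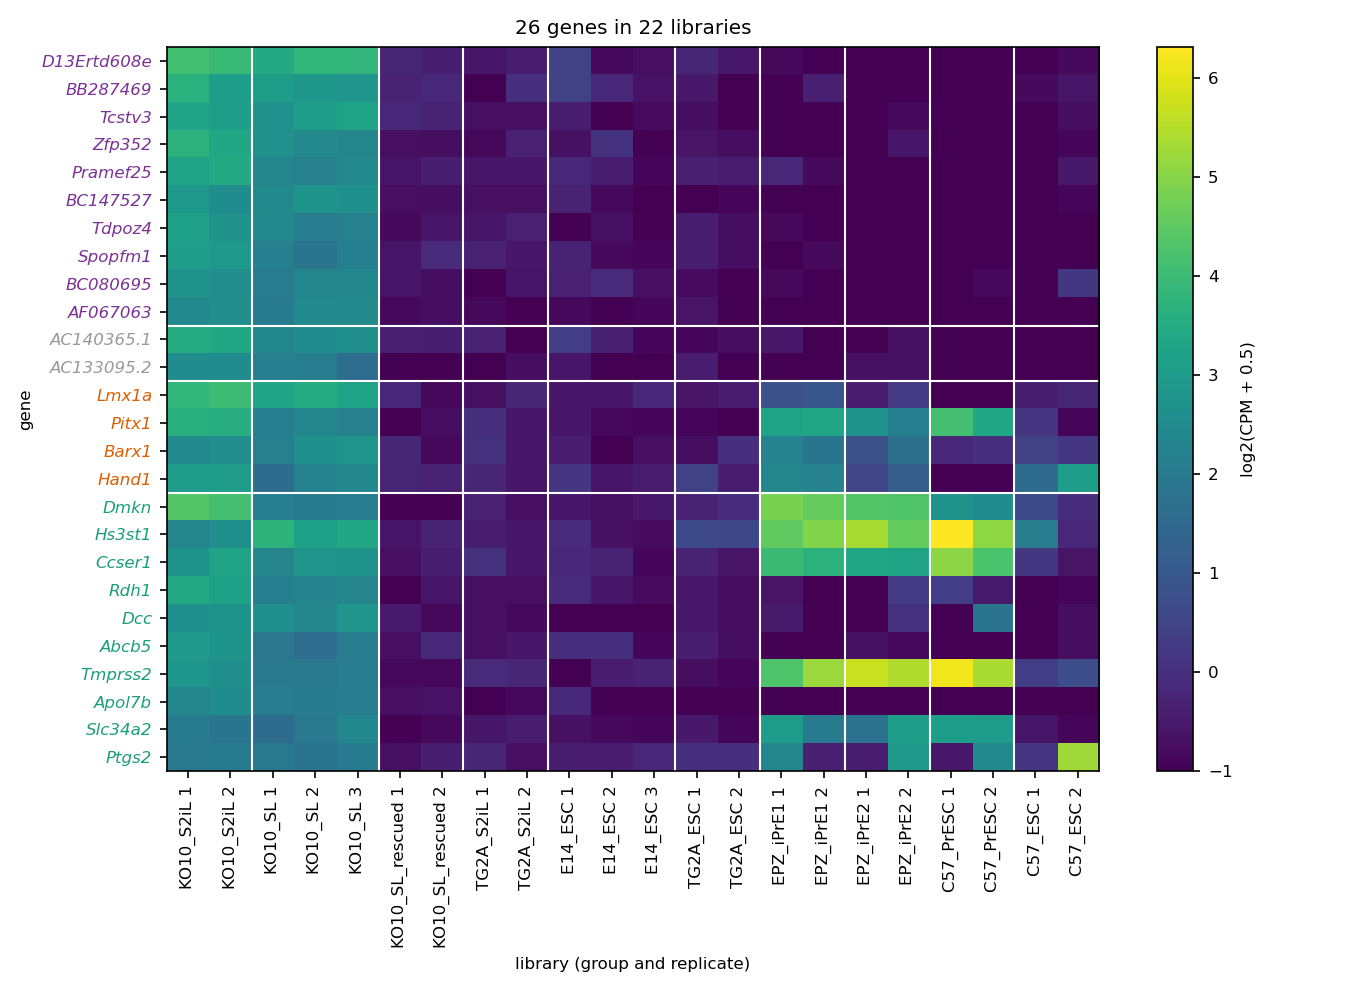
Level of the 26 genes (rows, names coloured by functional group: purple 2-cell and cleavage-stage families, grey clone-named, orange transcription factors, green guidance, epithelial and metabolic genes) in the 22 libraries (columns) as log2(CPM + 0.5). The 5 knockout columns are lighter in every row than the 9 dark wild-type and rescued E14 ESC columns. In the PrE columns a subset of orange and green rows is raised while the purple rows are dark.

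The 4 transcription factors are regulators of body patterning, and summed to 37.9 and 39.9 CPM in KO10_S2iL and 19.8, 25.6 and 24.4 CPM in KO10_SL, against 1.07 and 0.537 CPM after rescue, 1.51 and 0.887 CPM in TG2A_S2iL and 1.24, 0.432 and 0.761 CPM in E14_ESC. Lmx1a, a LIM-homeodomain factor of midbrain dopaminergic neurons, led the group with 13.5 and 15.5 CPM in KO10_S2iL and 9.21, 11.1 and 9.03 CPM in KO10_SL, against 0.393 and 0.0537 CPM after rescue, 0.121 and 0.355 CPM in TG2A_S2iL and 0.185, 0.185 and 0.381 CPM in E14_ESC. Pitx1, the homeodomain factor of hindlimb identity and the pituitary, had 11.6 and 11.2 CPM in KO10_S2iL and 3.99, 4.60 and 4.08 CPM in KO10_SL, against 0 and 0.108 CPM after rescue, 0.483 and 0.177 CPM in TG2A_S2iL and 0.185, 0.0617 and 0.0381 CPM in E14_ESC. Every knockout library of both genes was above all others of the 5 groups, as for all 26 members, and these groups chose the set.

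Hand1, a basic helix-loop-helix factor of trophoblast giant cells and heart, had 7.62 and 7.75 CPM in KO10_S2iL and 2.51, 4.09 and 4.78 CPM in KO10_SL, against 0.337 and 0.322 CPM after rescue, 0.363 and 0.177 CPM in TG2A_S2iL and 0.618, 0.185 and 0.228 CPM in E14_ESC. Barx1, a homeodomain factor of stomach and tooth mesenchyme, had 5.12 and 5.48 CPM in KO10_S2iL and 4.07, 5.86 and 6.53 CPM in KO10_SL, against 0.337 and 0.0537 CPM after rescue, 0.544 and 0.177 CPM in TG2A_S2iL and 0.247, 0 and 0.114 CPM in E14_ESC. In Barx1 the 2i libraries lay within the range of those without 2i, whereas in Hand1 they lay above it. Lmx1a lies at chr1:167689237-167848741, Pitx1 at chr13:55825051-55836192, Hand1 at chr11:57828705-57832818 and Barx1 at chr13:48662998-48666507 (GRCm38, GENCODE M21), and all 25 members found in that annotation are protein-coding there. Pitx1 overlaps the antisense gene Gm47071 in exons, and whether the counting used strand is not stated, so their reads cannot be told apart.

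The 10 guidance, epithelial and metabolic genes summed to 72.6 and 70.5 CPM in KO10_S2iL and 47.2, 43.4 and 50.5 CPM in KO10_SL, against 0.899 and 1.70 CPM after rescue, 2.42 and 1.60 CPM in TG2A_S2iL and 2.68, 1.79 and 1.14 CPM in E14_ESC. Dmkn encodes dermokine, a secreted protein of stratified epithelia, and had 20.1 and 17.1 CPM in KO10_S2iL and 3.91, 3.58 and 3.73 CPM in KO10_SL, against 0 and 0 CPM after rescue, 0.302 and 0.118 CPM in TG2A_S2iL and 0.185, 0.123 and 0.190 CPM in E14_ESC. Hs3st1, a sulfotransferase that modifies heparan sulfate, had its lower values with 2i, at 4.55 and 5.71 CPM in KO10_S2iL and 12.8, 8.60 and 9.95 CPM in KO10_SL, against 0.169 and 0.322 CPM after rescue, 0.242 and 0.177 CPM in TG2A_S2iL and 0.433, 0.123 and 0.0761 CPM in E14_ESC. It was the one member with both 2i knockout libraries below all 3 without 2i.

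Ccser1, a coiled-coil protein gene of more than a megabase at chr6:61180324-62382865, had 6.20 and 8.86 CPM in KO10_S2iL and 4.48, 6.49 and 6.23 CPM in KO10_SL, against 0.112 and 0.269 CPM after rescue, 0.544 and 0.177 CPM in TG2A_S2iL and 0.371, 0.309 and 0.0381 CPM in E14_ESC. Rdh1, a retinol dehydrogenase, had 10.4 and 8.56 CPM in KO10_S2iL and 3.94, 4.34 and 4.51 CPM in KO10_SL, against 0 and 0.161 CPM after rescue, 0.121 and 0.118 CPM in TG2A_S2iL and 0.433, 0.185 and 0.0761 CPM in E14_ESC. Dcc, the netrin receptor of growing axons, had 0 counts in all 3 E14_ESC libraries and means of 5.99 CPM in KO10_S2iL and 5.71 CPM in KO10_SL. The remaining members were the serine protease Tmprss2, the phosphate transporter Slc34a2, the cyclooxygenase Ptgs2, the ABC transporter Abcb5 and the apolipoprotein L gene Apol7b. Dmkn lies at chr7:30763756-30781063, Hs3st1 at chr5:39613935-39755475, Tmprss2 at chr16:97564682-97611195 and Slc34a2 at chr5:53038081-53071664. The means of Tmprss2, Slc34a2, Ptgs2, Abcb5 and Apol7b ran between 3.31 and 6.84 CPM in KO10_S2iL, between 3.17 and 3.71 CPM in KO10_SL, and between 0.0744 and 0.342 CPM in E14_ESC.

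**Figure D3:**
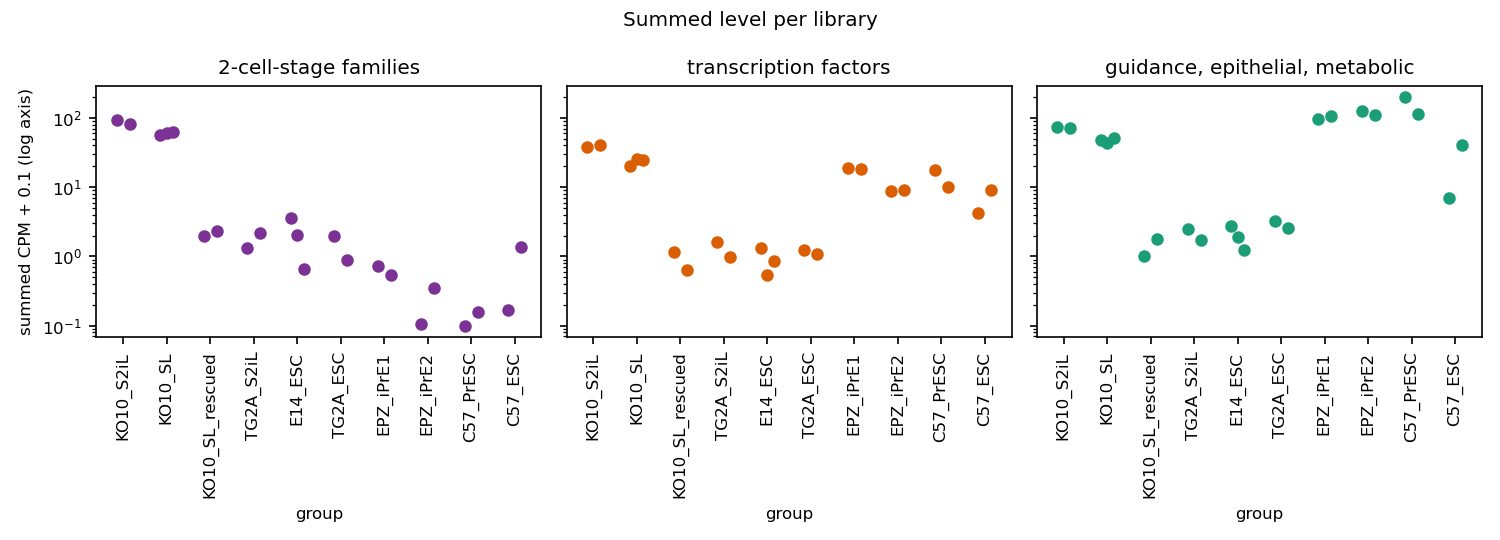
Summed level per library (log axis, CPM with 0.1 added) of the 10 2-cell and cleavage-stage genes, the 4 transcription factors and the 10 guidance, epithelial and metabolic genes in the 10 groups, 1 point per library. In the knockout all 3 sums are high, whereas in the PrE groups only the transcription factors (8.72 to 18.8 CPM) and the last group (97.7 to 197 CPM) are, the transcription factors in C57_PrESC almost wholly through Pitx1 (mean 13.3 CPM), and the embryonic families stay at or below 0.617 CPM.

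The thresholds cut through a continuous range of values. The genes that passed the knockout threshold most narrowly were Abcb5, Ptgs2, Slc34a2 and AC133095.2, whose lower knockout mean was 3.17, 3.26, 3.31 and 3.40 CPM. Foxd1, Ubtfl1, AF067061 and Sp110 fell just short, at 2.97, 2.96, 2.95 and 2.94 CPM. On the side of the silent groups, BB287469 (0.466 CPM in its highest group), Tmprss2 (0.389), Ccser1 (0.361) and Barx1 (0.361) passed most narrowly. Lhx2 (0.508) and Hdc (0.559) fell just outside. Genes on both sides include relatives of members, such as AF067061 of the chromosome 13 cluster.

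The wild-type TG2A_ESC libraries were not used in choosing the genes and give a further look at the silent state. Of the 26 genes, 23 had a mean below 0.5 CPM there, a level under which 74.0% of all symbols also lay. The exceptions were Hs3st1 at 1.01 CPM, Hand1 at 0.536 CPM and Ptgs2 at 0.505 CPM. All 5 knockout libraries lay above both TG2A_ESC libraries for 26 of 26 genes, against 28.5% of the 17547 tested genes, but the knockout libraries are those that chose the set. In C57_ESC, a wild-type set of another strain, 20 of the 26 had a mean below 0.5 CPM, beside 73.4% of all symbols, and Ptgs2 (19.1 CPM) and Hand1 (5.13 CPM) exceeded 3 CPM. The count in C57_ESC is near the share of all symbols, so nothing is read from it. TG2A_ESC is of the same line as the sets that chose the genes. The high level was not tested in libraries outside the selection.

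PrE stem cells carry Ezh2 and were not used in choosing the genes, so their levels could be tested. Ezh2 was lower than in the matching ESCs by 0.52 on the log2 scale in EPZ_iPrE1 (adjusted p = 0.00939), 0.51 in EPZ_iPrE2 (adjusted p = 0.00981) and 0.80 in C57_PrESC (adjusted p = 3.38e-04), all from edgeR's quasi-likelihood test with Benjamini-Hochberg adjustment over 17547 genes, which is used for every adjusted p below. Each log2 fold change is the first-named group over the second, with the standard error (SE) derived from the fit. The labelled cell type was borne by its markers: all 14 PrE markers rose in each PrE group against its ESCs, and their summed level was 18710 to 25640 CPM in the 6 PrE libraries, against 622 to 1376 CPM in the 4 ESC libraries compared with them.

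In EPZ_iPrE1 against TG2A_ESC, 9 of the 26 genes rose, where 27.9% of all tested genes did, and 0 fell, where 32.2% of all tested genes did. Genes chosen as near silent in wild-type E14 cells had little room to fall, so nothing is read from the 0. With these groups alone 9 members passed the filter on low counts, and all 9 were called higher, as were 28.5% of the 14475 genes tested. Members near silent in TG2A_ESC could pass that filter mainly through EPZ_iPrE1, so nothing is read from the 9 of 9. At an unadjusted p below 0.05 the edgeR test placed 1 gene lower, Abcb5, and DESeq2 called 0 lower. The 26 genes had a median change of -0.08, beside -0.07 over all tested genes, and 14 of them had at most 10 counts in both groups, where little can be detected. The largest rises were in Tmprss2, with 19.2 and 36.4 CPM in EPZ_iPrE1 against 0.103 and 0.0495 CPM in TG2A_ESC, and in Pitx1, with 8.69 and 9.41 CPM against 0.0516 and 0 CPM. TG2A_ESC held only 3 counts of Tmprss2 and 1 of Pitx1, so these ratios, 369 (95% counting interval 126 to 1791) and 359 (63.8 to 14220), are loosely fixed; the adjusted p was 4.78e-09 for Tmprss2 and 8.53e-07 for Pitx1.

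Dmkn had 28.1 and 23.4 CPM in EPZ_iPrE1 against 0.309 and 0.445 CPM in TG2A_ESC, a change of 6.10 (SE 0.369, adjusted p = 1.50e-09). Ccser1 had 15.2 and 12.5 CPM against 0.309 and 0.148 CPM in TG2A_ESC (5.93, SE 0.651, adjusted p = 6.96e-07). Slc34a2, a sodium-phosphate carrier of secretory epithelia, had 7.73 and 3.45 CPM against 0.206 and 0.0495 CPM in TG2A_ESC (5.43, SE 0.704, adjusted p = 4.54e-06). None of these libraries overlapped between the groups, and the same held for Hs3st1, which had 22.5 and 29.9 CPM against 1.03 and 0.989 CPM (4.73, SE 0.681, adjusted p = 1.41e-05).

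The other transcription factors rose by less. Barx1 had 4.20 and 3.09 CPM in EPZ_iPrE1 against 0.103 and 0.495 CPM in TG2A_ESC (3.6, SE 0.726, adjusted p = 4.13e-04). Hand1 had 4.64 and 4.24 CPM against 0.825 and 0.247 CPM (3.09, SE 0.647, adjusted p = 6.54e-04), and Lmx1a had 1.25 and 1.44 CPM against 0.155 and 0.247 CPM (2.74, SE 0.618, adjusted p = 0.00122). The 11 trophoblast markers, which include Hand1, summed to 357 to 499 CPM in EPZ_iPrE1 against 45.1 to 88.0 CPM in TG2A_ESC, with Elf5, Prl3d1 and Tpbpa at 0 in EPZ_iPrE1; of the 7 tested ones other than Hand1, 4 rose and 1 fell, and their part in the Hand1 value was not tested. Lmx1a stayed far under its level in the knockout, whereas Pitx1 lay between its levels in KO10_S2iL and KO10_SL. The embryonic families had 0.617 and 0.431 CPM in sum in EPZ_iPrE1 against 1.86 and 0.791 CPM in TG2A_ESC, and none of the 10 was called.

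EPZ_iPrE2 was set against the same TG2A_ESC libraries, so its comparison is not independent of the one above and the values are given side by side only. Against TG2A_ESC 7 of the 26 genes rose (28.8% of all tested genes) and 4 fell (33.4%), with a median change of 0.02 beside -0.11 over all tested genes. Tmprss2 had 51.4 and 43.0 CPM in EPZ_iPrE2, a ratio of 623 (213 to 3026) to the 3 counts of TG2A_ESC with an adjusted p of 1.58e-09. Pitx1 had 6.29 and 3.94 CPM, a ratio of 202 (35.8 to 8044) to 1 count with an adjusted p of 3.03e-06. The others that rose were Dmkn (5.74), Slc34a2 (5.41), Ccser1 (5.38), Hs3st1 (5.06) and Barx1 (2.76, adjusted p = 0.00343), on the log2 scale.

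Hand1 had 0.934 and 1.73 CPM in EPZ_iPrE2 against 0.825 and 0.247 CPM in TG2A_ESC (1.38, adjusted p = 0.0816) and Lmx1a had 0.249 and 0.678 CPM against 0.155 and 0.247 CPM (1.24, adjusted p = 0.126), and neither was called. The 4 genes called lower belong to the embryonic families and had 0 counts in EPZ_iPrE2. D13Ertd608e, with 11 counts in TG2A_ESC, was at least 2.99-fold lower (adjusted p = 0.0217), Pramef25 at least 2.82-fold lower (adjusted p = 0.0175), and Spopfm1 and Tdpoz4, with 7 counts each in TG2A_ESC, at least 1.90-fold lower (adjusted p = 0.0263 for both). These bounds take 3 counts over the group as the floor. The 4 calls rest on few counts. These genes passed the filter on low counts through the knockout libraries: with EPZ_iPrE2 and TG2A_ESC alone 8 of the 26 members passed it, the 4 were not among them, and they could not be tested. Leaving out either EPZ_iPrE2 library ended all 4 calls with fitted changes of about the same size (for D13Ertd608e -5.46 and -5.45, beside -5.44 with all libraries), and without replicate 1 of TG2A_ESC only Pramef25 was still called.

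Between the inhibitor-derived lines, EPZ_iPrE2 against EPZ_iPrE1, 0 genes rose and 0 fell, where 1.75% and 2.16% of all tested genes did. At an unadjusted p below 0.05 the edgeR test placed Tmprss2 higher and Hand1, Lmx1a and Pramef25 lower, and DESeq2 called 0 in each direction. Hand1 differed by -1.71 (SE 0.600, adjusted p = 0.148) and Tmprss2 by 0.78 (SE 0.342, adjusted p = 0.272). In all, 15 of the 26 genes, Pramef25 among them, had at most 10 counts in both lines.

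In the C57 cells, C57_PrESC against C57_ESC, 8 genes rose (27.3% of all tested genes) and 2 fell (33.4%), with a median of 0 beside -0.09 over all tested genes. Slc34a2 had 8.08 and 7.71 CPM in C57_PrESC against 0.161 and 0.0501 CPM in C57_ESC (6.23, SE 0.724, adjusted p = 1.42e-06). Ccser1 had 32.3 and 18.4 CPM against 0.643 and 0.150 CPM in C57_ESC (6.07, SE 0.620, adjusted p = 3.23e-07). Tmprss2 had 71.0 and 41.2 CPM against 0.750 and 1.15 CPM in C57_ESC (5.94, SE 0.448, adjusted p = 9.28e-09).

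Hs3st1 had 78.8 and 32.8 CPM in C57_PrESC against 3.70 and 0.400 CPM in C57_ESC (4.86, SE 0.653, adjusted p = 7.05e-06). Pitx1 had 17.1 and 9.51 CPM against 0.590 and 0.0501 CPM (5.46, SE 0.674, adjusted p = 2.86e-06), and Dmkn had 6.11 and 5.35 CPM against 1.07 and 0.450 CPM (2.98, SE 0.331, adjusted p = 1.25e-06). With these 3, a group of 6 genes (Tmprss2, Hs3st1, Ccser1, Dmkn, Pitx1 and Slc34a2) rose in all 3 PrE comparisons, with no overlap between the PrE libraries and their ESCs, as did 16.1% of all tested genes, while the EPZ comparisons share their ESC libraries. Tmprss2, Hs3st1, Ccser1 and Slc34a2 had higher means in all 3 PrE groups than in either knockout group, a difference that was not tested.

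**Figure D4:**
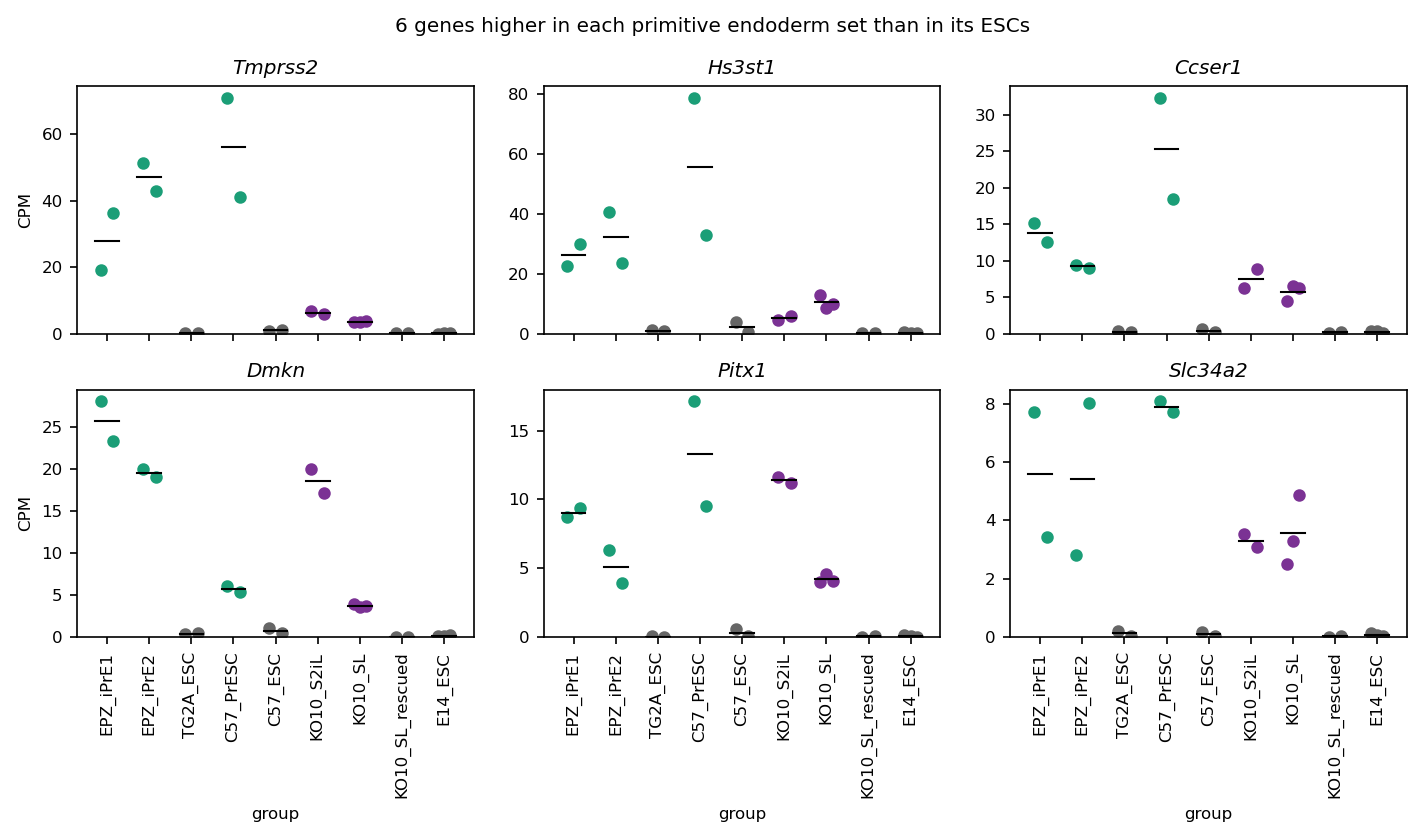
Level in CPM (y axis, linear) of the 6 genes that rose in every PrE group, by library (points) and group mean (bars), with PrE cells in green, knockout cells in purple and wild-type or rescued ESCs in grey. Every PrE and knockout point lies above the grey points of E14, TG2A and rescued cells; Hs3st1 in C57_ESC reached 3.70 CPM in 1 library.

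Dcc and Rdh1 were also called higher in C57_PrESC, on few counts and unevenly between libraries. A fit of the C57 groups alone, where 9 members passed the filter on low counts, called 6 higher, and 17.3% of the 14813 genes tested. Members near silent in C57_ESC could pass that filter mainly through C57_PrESC, so nothing is read from this count. Dcc had 0 and 2.98 CPM in C57_PrESC against 0 and 0.10 CPM in C57_ESC, 53 against 2 counts, a ratio of 30.6 (8.06 to 259, adjusted p = 0.0172). All of its counts came from replicate 2 of C57_PrESC, and without that library its change was -3.11 (adjusted p = 0.471). Rdh1 had 0.764 and 0.225 CPM against 0 and 0.0501 CPM, 16 against 1 counts, a ratio of 18.5 (2.87 to 775, adjusted p = 0.0238), and was not called without replicate 1 of C57_PrESC (adjusted p = 0.183) or of C57_ESC (adjusted p = 0.112).

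Hand1 and Lmx1a fell in C57_PrESC, where both had 0 counts. Hand1 had 2.41 and 7.86 CPM in C57_ESC, or 202 counts, so C57_PrESC was at least 58.3-fold lower (adjusted p = 6.05e-06). Lmx1a had 0.268 and 0.350 CPM in C57_ESC, 12 counts in all, and was at least 3.46-fold lower (adjusted p = 0.00322), and did not pass the filter on low counts in the C57 groups alone. Barx1 had 0.382 and 0.507 CPM in C57_PrESC against 0.858 and 0.601 CPM in C57_ESC (-0.63, adjusted p = 0.483). Hand1, Barx1, Tmprss2 and Ptgs2 exceeded 0.5 CPM in both C57_ESC libraries, and Hs3st1 and Dmkn averaged above that level, so these 6 were not silent in all wild-type ESCs. The embryonic families had 0 and 0.0563 CPM in sum in C57_PrESC against 0.0670 and 1.26 CPM in C57_ESC, with 9 of the 10 at 0 counts in C57_PrESC.

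The C57 libraries of a group differed in markers of other cells. The 15 fibroblast markers summed to 59.0 and 2803 CPM in C57_PrESC and 207 and 807 CPM in C57_ESC, and to between 359 and 627 CPM in the 4 EPZ libraries, with no marker at 0 in any of these groups. The 14 macrophage markers summed to 67.9 and 242 CPM in C57_PrESC and 14.4 and 18.9 CPM in C57_ESC, where Ptprc, Fcgr1, Tyrobp and C1qb were at 0. Ptgs2, an inflammatory enzyme also made by fibroblasts, took the same order within each C57 group, with 0.191 and 5.07 CPM in C57_PrESC and 0.590 and 37.7 CPM in C57_ESC (-2.81, adjusted p = 0.0947). In the EPZ lines it had 4.56 and 0.287 CPM in EPZ_iPrE1 and 0.249 and 7.09 CPM in EPZ_iPrE2. The part of such cells in these values was not tested; without replicate 2 of C57_PrESC, the library with most of both marker sets, 7 genes were called higher, Dcc being the one lost.

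The difference between the EPZ and the C57 change was tested directly, as the mean EPZ change against TG2A_ESC less the change of C57_PrESC against C57_ESC. It was larger in the EPZ lines for 6 genes (18.8% of all tested genes) and smaller for 0 (16.3%); edgeR placed 0 lower at an unadjusted p below 0.05, and so did DESeq2 after adjustment. Barx1 differed by 3.81 (SE 1.0, adjusted p = 0.00696), Dmkn by 2.94 (SE 0.476, adjusted p = 2.15e-04) and Tmprss2 by 2.90 (SE 0.868, adjusted p = 0.0153). Tmprss2 averaged 0.0763 CPM in TG2A_ESC and 0.951 CPM in C57_ESC, and among the PrE groups its mean was highest in C57_PrESC. Hand1 (adjusted p = 1.29e-05) and Lmx1a (adjusted p = 0.00104) were called as well, with sizes that rest on 0 counts in C57_PrESC and are not fixed. Ptgs2 (5.39, adjusted p = 0.0491) depended on replicate 2 of C57_ESC, without which the difference was 0.36 (adjusted p = 0.974). Line, strain and derivation change together here and cannot be told apart.

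The levels in both knockout media chose the set, so the difference between the media is given as a description and nothing is read from its counts of calls. Of the 26 genes, 23 had a higher mean in KO10_S2iL than in KO10_SL, and for 17 both 2i libraries lay above all 3 others, where 46.6% of all tested genes did so. For 1 gene, Hs3st1, they lay below, where 26% of all tested genes did. The median change was 0.40 beside 0.06 over all tested genes, but 2 genes passed the test as higher (19.6% of all tested genes) and 0 as lower (17.3%). At an unadjusted p below 0.05, edgeR placed 1 gene lower (Hs3st1) and DESeq2 called 0 lower.

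Dmkn had the largest difference, 2.17 on the log2 scale, with 20.1 and 17.1 CPM in KO10_S2iL against 3.91, 3.58 and 3.73 CPM in KO10_SL. Pitx1 differed by 1.29, with 11.6 and 11.2 CPM in KO10_S2iL against 3.99, 4.60 and 4.08 CPM in KO10_SL, and its call ended without any 1 of the 5 libraries. Hs3st1 differed by -1.17, Tmprss2 by 0.71 and Hand1 by 0.88, and these were not called. A fit of the 2 knockout groups alone called 12 members higher, where 30.2% of all genes tested in it were, and 1 lower, Hs3st1, where 30.4% were.

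**Figure D5:**
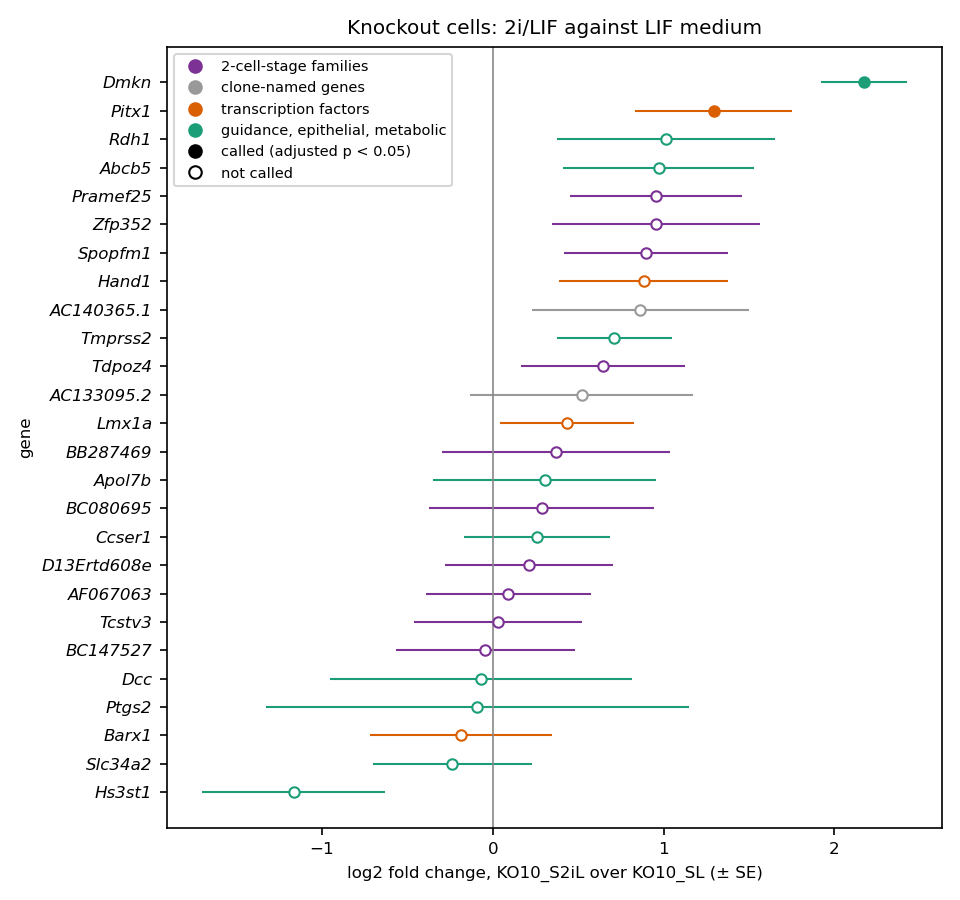
Log2 fold change of KO10_S2iL over KO10_SL (x axis, points, with bars of 1 SE) for the 26 genes (y axis), coloured by functional group, filled where called. Dmkn (2.17) and Pitx1 (1.29) are called, most open points lie to the right of 0, and Hs3st1 (-1.17) lies farthest left.

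Markers of other cells moved with the medium. The 14 PrE markers summed to 952 to 957 CPM in KO10_S2iL and 3204 to 3550 CPM in KO10_SL, 13 of 14 fell with 2i, and none was at 0 in either group. Against wild-type cells, all 14 rose in KO10_SL over E14_ESC, where 25.8% of all tested genes rose, and 8 of 14 rose in KO10_S2iL over TG2A_S2iL, where 15.7% did. The 6 members that rose in every PrE group did not share a direction between the media. As a description, their changes with 2i were 2.17 for Dmkn, 1.29 for Pitx1, 0.71 for Tmprss2, 0.26 for Ccser1, -0.24 for Slc34a2 and -1.17 for Hs3st1. The 11 trophoblast markers, which include Hand1, summed to 384 to 390 CPM in KO10_S2iL and 137 to 205 CPM in KO10_SL. Of the 7 tested ones other than Hand1, 4 rose with 2i (Tfap2c, Krt7, Cdx2 and Krt8), and Prl3d1 and Tpbpa were at 0 counts in both groups. The part of PrE-like or trophoblast-like cells in the members' values was not tested.

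Developmental PRC2 targets and parts of the pathway were read from lists. Of 67 developmental PRC2 targets outside the set and the left-out families, 51 were tested: 38 rose and 2 fell in KO10_SL against E14_ESC, with a median of 2.96, where 25.8% of all tested genes rose and 22.7% fell. In KO10_S2iL against TG2A_S2iL 28 rose (median 2.62), where 15.7% of all tested genes did. Hand1 and Pitx1 are members of that list but were not counted in it. Between media, 5 of the 51 rose with 2i and 2 fell. In PrE cells 17 rose and 8 fell in EPZ_iPrE1, 18 rose and 10 fell in EPZ_iPrE2, and 7 rose and 17 fell in C57_PrESC, each against its ESCs. Over all tested genes 27.9%, 28.8% and 27.3% rose and 32.2%, 33.4% and 33.4% fell in these comparisons, in the same order.

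Of 13 tested PRC2 subunit genes, Ezh2 included, 7 fell and 1 rose in KO10_SL against E14_ESC, where 22.7% of all tested genes fell and 25.8% rose, and 6 fell in KO10_S2iL against TG2A_S2iL, where 14.3% fell. Ezh1, the other methyltransferase, fell by 1.45 (SE 0.173, adjusted p = 4.25e-06) in KO10_SL against E14_ESC and by 0.75 (SE 0.208, adjusted p = 0.0127) in KO10_S2iL against TG2A_S2iL. Suz12, a core subunit, differed by -0.04 (adjusted p = 0.858) in KO10_SL against E14_ESC and by 0.36 (adjusted p = 0.194) in KO10_S2iL against TG2A_S2iL. In the PrE comparisons, 3 subunit genes rose and 8 fell in EPZ_iPrE1, 3 rose and 8 fell in EPZ_iPrE2, and 4 rose and 8 fell in C57_PrESC, beside the shares of all tested genes just given for these comparisons.

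Of the markers of differentiated cells, those of muscle and germline were called in both directions in the knockout. Those of neurons, fibroblasts and macrophages were called only as higher. In KO10_SL against E14_ESC, where 25.8% of all tested genes rose and 22.7% fell, 3 of 12 tested neuron markers rose, 3 of 9 muscle markers rose and 1 fell, and 7 of 15 germline markers rose and 2 fell. In KO10_S2iL against TG2A_S2iL, where 15.7% rose and 14.3% fell, 4 neuron markers rose, 2 muscle markers rose and 2 fell, and 5 germline markers rose and 1 fell. Of the 15 fibroblast markers 1 rose in KO10_SL against E14_ESC. Of the 9 tested macrophage markers 3 rose in KO10_SL against E14_ESC and 2 in KO10_S2iL against TG2A_S2iL.

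The genes outside the set whose profile was most like the members' mean profile were Zic1 (Pearson r = 0.972), Shroom1 (0.963), Plscr4 (0.963) and Isl2 (0.958), over 10 group means of log2(CPM + 0.5). These groups share libraries with the selection, and r is a description. Zic1 had means of 3.02 CPM in KO10_S2iL and 3.00 CPM in KO10_SL, against 0.0562 CPM after rescue, and was left out by its symbol alone. Within the set the correlation of each gene with the mean of the other members was lowest for Ptgs2 (0.382), Tmprss2 (0.389) and Hs3st1 (0.447), which were also high in PrE cells or in a C57_ESC library. It was highest for Rdh1 (0.933), Lmx1a (0.928) and Dcc (0.922).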

How the data were processed

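The tools listed in the submitters' processing notes, without their roles, are STAR 2.7.6a, Trim Galore and DESeq2, with mm10 as the build. The authors deposited 1 table of estimated counts per gene symbol, unscaled, with 5.71 to 7.26% of symbols fractional per library. Not given in the sources used here were the counter, the annotation and the strand setting. The labels name polyA RNA but an rRNA depletion kit, so the RNA selection is uncertain. Library totals ran from 13.6 to 26.3 M.

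CPM used column totals. For tests, estimated counts, which had been planned as raw counts, were rounded and fitted in R 4.3.3 with edgeR 4.0.16: filterByExpr over 10 groups, TMM scaling, 1 coefficient per group, all 22 libraries, quasi-likelihood tests of 17547 genes and Benjamini-Hochberg adjustment, with calls below 0.05. Alternatives were RLE scaling, DESeq2 1.42.0, no filter, fits of the compared groups alone, a replicate block and leaving out each library. Counting intervals are exact, at 95%, and cover counting error only. Promoters came from RefSeq (GRCm38.p6), positions from GENCODE M21 for 25 members and from RefSeq for 1. Tables were handled in Python 3.11.15 with pandas 2.3.3.

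The members and gene lists (PRC2 subunits, developmental PRC2 targets, and markers of PrE, trophoblast, fibroblasts, macrophages, neurons, muscle and germline) were chosen with earlier results of these data known. Named genes were Ezh2, the 12 members highest in the knockout, up to 8 called members with the largest rise and fall per comparison, the 4 nearest each side of a threshold (of those just above the limit for silent groups only the nearest pair is reported here), members of a list, and the 4 genes most like the mean profile; other names serve to account for the members or lists and were chosen after their values were seen.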

Additional observations from a re-analysis of the deposited data

Results flagged for a closer look

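A total of 6 members changed differently in the EPZ lines and in the C57 cells, by a test of the difference itself (mean change of EPZ_iPrE1 and EPZ_iPrE2 against TG2A_ESC, less that of C57_PrESC against C57_ESC, edgeR's quasi-likelihood test with adjustment over all genes). All 6 were called higher, where 18.8% of all tested genes were, and 0 lower, where 16.3% were. The number of calls is thus not taken as a trait of the members. The log2 difference was 11.82 for Hand1 (adjusted p = 1.29e-05) and 7.54 for Lmx1a (adjusted p = 0.00104), but both genes had 0 counts in C57_PrESC, so these sizes depend on the prior count of the fit and bound nothing. It was 5.39 for Ptgs2 (adjusted p = 0.0491), 3.81 for Barx1 (adjusted p = 0.00696), 2.94 for Dmkn (adjusted p = 2.15e-04) and 2.90 for Tmprss2 (adjusted p = 0.0153). For Hand1 and Lmx1a the EPZ_iPrE1 libraries were above both TG2A_ESC libraries while the C57_PrESC libraries were below both C57_ESC libraries. Dmkn and Tmprss2 rose in the EPZ lines and in the C57 cells, with the larger log2 change in the EPZ lines. For Tmprss2 the level itself was not higher there. Its means were 27.8 CPM in EPZ_iPrE1, 47.2 CPM in EPZ_iPrE2 and 56.1 CPM in C57_PrESC. The ESC means of Tmprss2 were 0.0763 CPM in TG2A_ESC and 0.951 CPM in C57_ESC. The call for Ptgs2 ended under the replicate block (5.26, adjusted p = 0.0653) and without any 1 of 6 of the libraries compared. That for Tmprss2 ended without replicate 2 of TG2A_ESC or of C57_ESC.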

How the results depend on the processing

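Of the alternatives to single-gene values, 421 kept direction and call, 11 gained a call, 31 lost one and 2 reversed. The reversals were Dcc in C57_PrESC against C57_ESC without replicate 2 of C57_PrESC (-3.11, the lowest of -3.11 to 7.87 without 1 library) and Ptgs2 in the same comparison without replicate 2 of C57_ESC (2.23, the highest of -6.51 to 2.23). The number of members, 26, was 24 with TMM scaling, 12 and 57 with ceilings of 0.25 and 1 CPM, 58 and 11 with floors of 2 and 5 CPM, 14 where every library had to pass, and 24 to 29 without 1 library. Without the filter on low counts, 2 genes were called lower in EPZ_iPrE1 against TG2A_ESC, 4 in C57_PrESC against C57_ESC, 1 in EPZ_iPrE2 against EPZ_iPrE1 (Hand1), 2 in the EPZ less C57 difference and 1 in KO10_S2iL against KO10_SL (Hs3st1). With the compared groups alone, 0 were called lower in EPZ_iPrE2 against TG2A_ESC and 1 in C57_PrESC against C57_ESC, where 8 and 9 members passed the filter on low counts and the genes lost were not among them, and 1 in KO10_S2iL against KO10_SL, where 12 were called higher. These fits called 6 members higher in C57_PrESC against C57_ESC, where 9 passed that filter, and 17.3% of all genes tested. In the EPZ less C57 difference they called 4 higher, where 11 passed, and 11% of all genes tested. Leaving out 1 library gave 0 to 1 lower in EPZ_iPrE1, 7 to 8 higher and 0 to 5 lower in EPZ_iPrE2, 6 to 8 higher and 2 to 5 lower in C57_PrESC, 4 to 6 higher and 0 to 1 lower in the difference, and 1 higher in KO10_S2iL against KO10_SL, Pitx1 being lost each time. The causes were not tested. Under the replicate block 1 gene was called higher in KO10_S2iL against KO10_SL, Pitx1 being lost (1.19, adjusted p = 0.0893), and Ptgs2 left the EPZ less C57 difference. The block used numbers from the titles that were not taken as pairs, since same-numbered libraries had deviations correlated at 0.0249 (EPZ_iPrE1 and TG2A_ESC), -0.00923 (EPZ_iPrE2 and TG2A_ESC), 0.290 (C57_PrESC and C57_ESC), -0.363 (EPZ_iPrE2 and EPZ_iPrE1), and 0.0206 and -0.0148 (the knockout media). RLE scaling and DESeq2 changed no count by over 1.5 times, and RLE shifted the median of all tested genes by -0.0489 to 0.0394. Up to 15 of the 26 genes had at most 10 counts in both groups of a comparison, where depth limits what can be called.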
